A study of Mus musculus with 31 samples.

Results

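The genes described here are 39 type I interferon stimulated genes of the mouse, a list of gene symbols that was matched to the Ensembl identifiers of the deposited count tables. All 39 symbols matched, out of 45706 gene identifiers in all. The rule for the list used no measured value of a comparison, but the genes were chosen with earlier results of these data known. RNA was sequenced from sorted bone marrow cells of 10-week-old C57BL/6 mice in 31 libraries that fall into 8 groups. Long-term haematopoietic stem cells (HSC), the self-renewing cells at the top of blood formation, were taken 7 days after an intraperitoneal injection of PBS (4 libraries) or of 1 mg β-glucan, a glucose polymer of fungal cell walls (3 libraries). HSC and multipotent progenitors (MPP), their immediate progeny without long-term self-renewal, were taken on day 28 after PBS or after 1 mg β-glucan, with 4 libraries in each of these 4 groups. In the last pair of groups (4 libraries each), mice given PBS or 1 mg β-glucan also received 150 mg/kg 5-fluorouracil (5-FU), a drug that kills dividing cells, on day 7, and HSC were taken 14 days after that. Mice of both these groups carried the 5-FU treatment. The labels do not say whether the replicates of a group are separate mice or pools, so the p-values below measure only the spread between these libraries. Neither the day nor 5-FU stands in the column names of the 3 tables. The one that holds MPP was therefore taken for day 28, the one of 7 columns for day 7 and the one of 8 columns for 5-FU, and P and G in the names were read as PBS and β-glucan. MPP PBS replicate 1 carries an HSC cell-type tag beside an MPP title, and the title was followed.

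Type I interferons are secreted antiviral cytokines that signal through the receptor Ifnar1/Ifnar2 and the kinases Jak1 and Tyk2. The kinases activate a transcription factor complex that includes Stat2 and Irf9 and binds the interferon-stimulated response element in the promoters of genes such as these 39. The products sense foreign nucleic acid, block viral entry, replication or translation, modify proteins with the ubiquitin-like Isg15, or, as with Irf7 and Usp18, raise or restrain the response. Haematopoietic stem and progenitor cells are known to keep part of this programme switched on at rest, and type I interferon is known to push HSC out of quiescence.

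The promoters of several of these genes carry the core of the response element within the bases just upstream of the transcript start. RefSeq promoter windows (GRCm38.p6, the build that corresponds to mm10) were given for 29 of the 39 genes, and the 250 bases upstream of the start were searched on both strands for GAAA, any 2 bases and GAAA again. The core was found in 10 of the 29 genes (34.5%), against 936 of 27025 genes with a window (3.46%). The symmetric core of the other interferon element, the gamma activated sequence TTCNNNGAA, was found in 4 of the 29 (13.8%) against 8.13% of all genes; it can overlap the first motif. Parp9, Ifi204, Zbp1, Ifi27l2a, Mx1, Oas2, Rtp4, Usp18, Dhx58 and Mx2 had no window. The stretches that end at or next to the gene start are shown for 6 of the 10 genes with a match. They run 5′ to 3′ on the strand of the gene, and capitals mark the matches to this core on either strand. Several other genes described below had a window and no match to this core, such as Oasl2, Ifitm3, Ifit2, Herc6, Ifi44 and Lgals3bp.
Isg15 promoter, chr4:156200819-156200978, minus strand: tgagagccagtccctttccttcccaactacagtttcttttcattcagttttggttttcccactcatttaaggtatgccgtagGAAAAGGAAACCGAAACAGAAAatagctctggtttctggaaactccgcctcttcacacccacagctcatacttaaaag
Ifit1 promoter, chr19:34640729-34640870, plus strand: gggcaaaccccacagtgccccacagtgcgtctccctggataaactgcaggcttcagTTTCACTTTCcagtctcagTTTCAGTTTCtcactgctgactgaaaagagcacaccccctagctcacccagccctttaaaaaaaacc
Ifit3 promoter, chr19:34583369-34583528, plus strand: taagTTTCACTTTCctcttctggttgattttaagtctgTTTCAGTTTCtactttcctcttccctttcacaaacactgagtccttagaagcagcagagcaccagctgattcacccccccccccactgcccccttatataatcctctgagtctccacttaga
Oas1a promoter, chr5:120907526-120907685, minus strand: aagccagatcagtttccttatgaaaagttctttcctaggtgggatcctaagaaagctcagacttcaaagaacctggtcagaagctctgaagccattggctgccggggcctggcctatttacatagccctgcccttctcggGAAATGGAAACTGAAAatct
Rsad2 promoter, chr12:26456453-26456612, minus strand: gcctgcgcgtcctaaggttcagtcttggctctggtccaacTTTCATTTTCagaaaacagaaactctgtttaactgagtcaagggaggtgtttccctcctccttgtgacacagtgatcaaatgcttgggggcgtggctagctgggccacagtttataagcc
Bst2 promoter, chr8:71537473-71537632, minus strand: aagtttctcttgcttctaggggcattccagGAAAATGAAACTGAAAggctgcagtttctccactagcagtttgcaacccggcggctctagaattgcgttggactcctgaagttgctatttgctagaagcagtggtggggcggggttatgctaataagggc
Isg15 holds 3 matches that run into each other, Oas1a and Bst2 hold 2 that do, and Ifit1 and Ifit3 hold 2 separate ones. Rsad2 holds 1. Oas1a has them nearest to the start, with first bases 20 and 14 bases upstream in the strand of the gene. A match is a run of letters and does not show that a factor was bound.

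The libraries held 19331663 to 39485556 counts, with a median of 29751430. No 2 libraries were duplicates of each other within a group. The cell type labels were checked against markers. At day 28 in PBS mice, 7 of 8 markers of multipotent and lymphoid-primed progenitors were called higher in MPP than in HSC. Of 15 tested markers of long-term HSC, 9 were called lower and 2 higher, namely Ly6a and Cd34, which is in both lists. The summed share of the long-term HSC markers overlapped (0.0543% to 0.0946% in HSC, 0.0673% to 0.0863% in MPP). Genes of mature cells took a large share of the counts in every group. A list of 13 neutrophil genes took 5.12% to 19.5% of the counts and a list of 12 erythroid genes 2.20% to 19.5%, against 0.0543% to 0.309% for 16 long-term HSC markers. In such bulk samples, fewer cells of a type and less RNA per cell cannot be told apart. The part that mature cells take in the values below was not tested.

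Most of the 39 genes were transcribed in the cells of PBS mice. Levels are given as CPM, the count relative to the scaled library total, and between genes only per kilobase of transcript. Over the 31 libraries Ifitm3, which stops viruses from fusing with the membranes of the cell, had by far the highest level at 861 CPM per kilobase. It was followed by Ifi27l2a, a small interferon-induced protein, at 98.7, Isg15 at 97.2 and Bst2 (tetherin, which holds budding viruses to the cell surface) at 80.8. At the low end stood Oas2 at 1.75, Phf11d and Mx1 at 0.690 each, and Mx2 at 0.272 CPM per kilobase. Mx1 and Mx2 encode dynamin-like GTPases that trap viral components, and laboratory strains such as C57BL/6 are known to carry defective alleles of both. Summed over the 39 genes, PBS libraries held 3592 to 4078 CPM in HSC of day 7, 2180 to 2217 in HSC of day 28, 2259 to 2330 in MPP and 1816 to 2195 in HSC after 5-FU. The day 7 libraries stood above the rest without overlap; they are a table of their own, so day and table cannot be told apart. The erythroid list, at 6.61% to 8.06% of counts in day 7 PBS libraries and 18.5% to 19.5% in HSC of day 28, differed between the same tables, as did the 16 long-term HSC markers, at 0.268% to 0.309% and 0.0543% to 0.0946%. The part of either in the summed level was not tested.

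**Figure D1:**
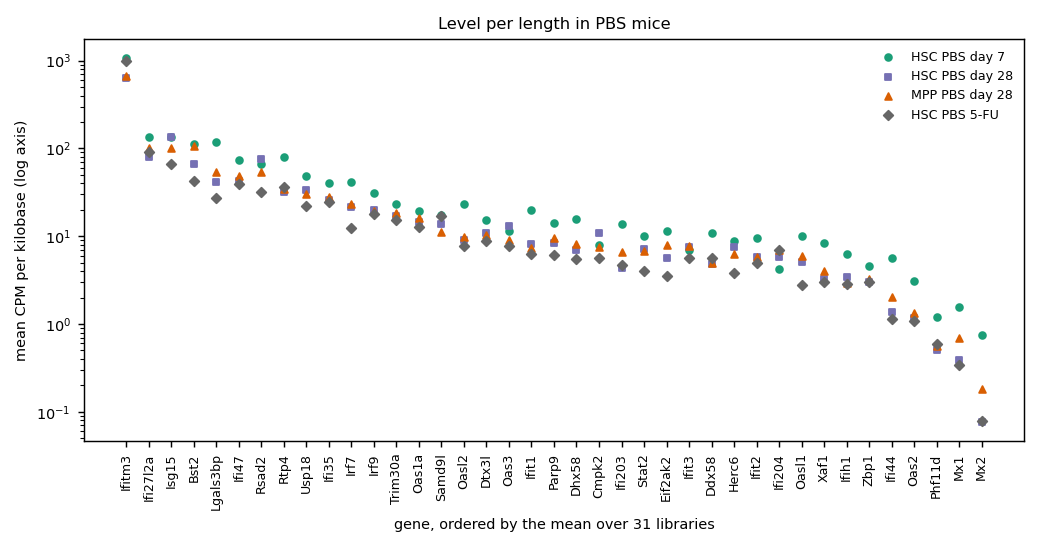
Mean CPM per kilobase (log axis) of the 39 genes in PBS mice, ordered by the mean over 31 libraries, with 1 symbol for each of the 4 PBS groups. Ifitm3 lies above every other gene in all 4 groups, and Phf11d, Mx1 and Mx2 lie at the low end.

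On day 7, 6 of the 39 rose in HSC and Rsad2 fell by 1.01 on the log2 scale. On day 28, 37 of 39 lay below the PBS level in HSC and 37 of 39 in MPP; 12 fell in MPP and none passed the test in HSC. After 5-FU, 25 of the 38 tested lay below the PBS level and none passed the test. Effects are log2 fold changes of β-glucan against PBS with their standard errors (SE), and a gene is called when its p-value in edgeR's quasi-likelihood test, adjusted by the Benjamini-Hochberg method over all genes tested, was under 0.05.

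**Figure D2:**
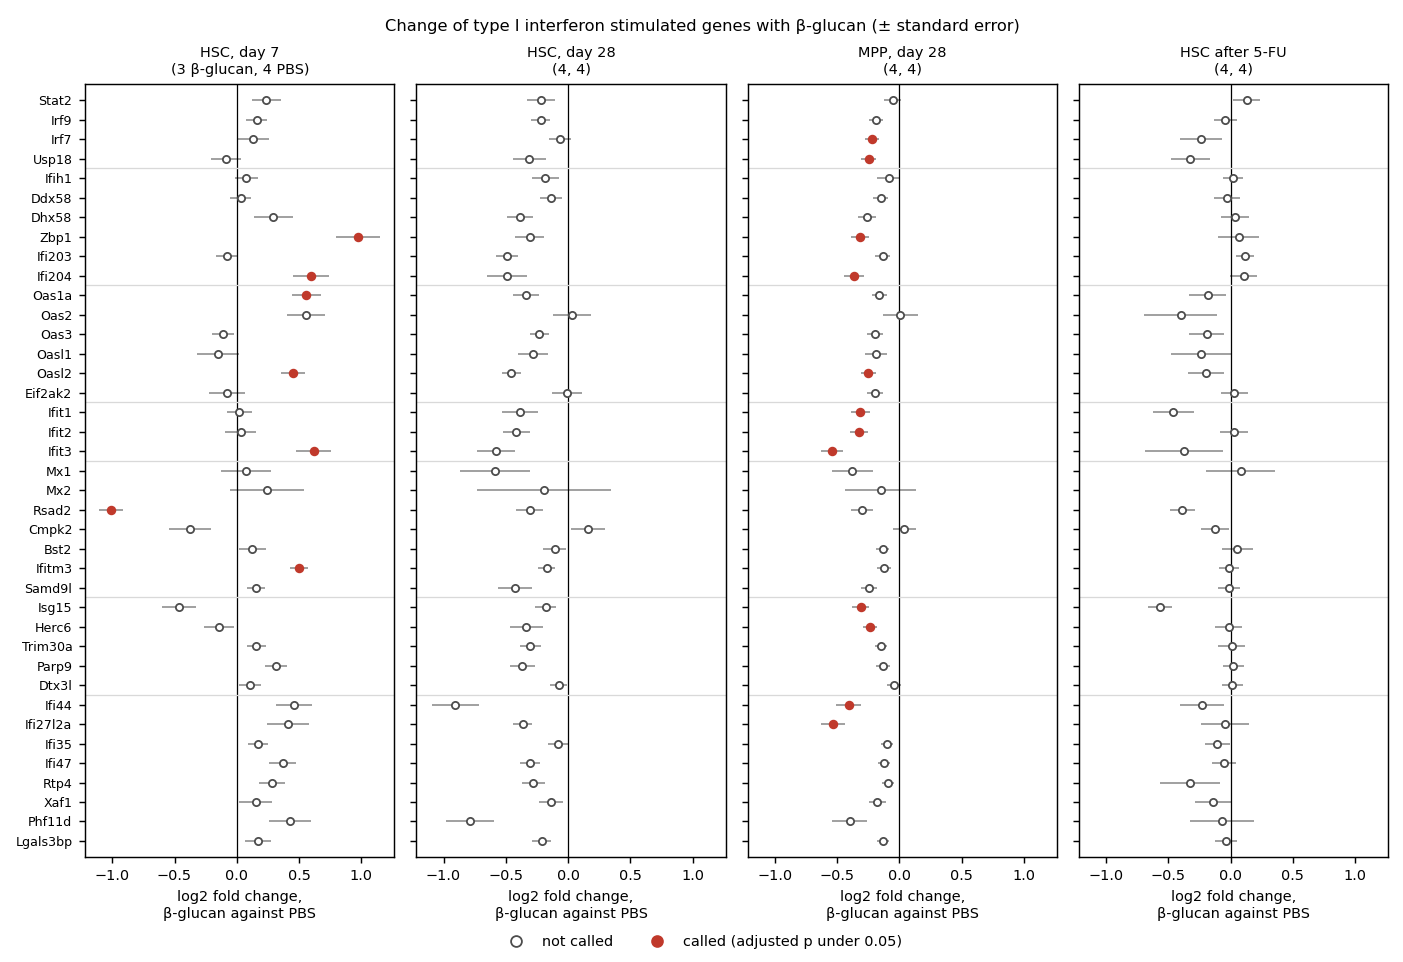
Log2 fold change of β-glucan against PBS (x axis, bars ± SE) for the 39 genes (rows, grouped by role) in the 4 settings, filled red where called. Most points lie right of 0 on day 7 except Rsad2 at -1.01, and nearly all lie left of 0 in both cell types on day 28.

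On day 7, members from 4 of the 7 role groups rose in HSC, each by less than 1 on the log2 scale. Of the 39 genes, 6 were called higher and 1 lower, against 2.83% higher and 3.88% lower of all 16403 genes tested. The median effect of the 39 was 0.16, against -0.01 for all genes, with 30 above 0 and 9 below. The groups did not overlap for 11 genes in the higher direction and 2 in the lower, where all genes give 8.73% and 10.2%.

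Among the nucleic acid sensors, 2 of 6 rose. Zbp1, a sensor of left-handed nucleic acid that can start cell death, stood at 20.75, 15.6, 17.1 and 11.2 CPM in the PBS libraries and at 33.9, 27.5 and 34.2 CPM in the β-glucan libraries. All 3 β-glucan libraries lay above all 4 PBS libraries, and the log2 fold change was 0.97 ± 0.18 (SE; edgeR, adjusted p = 0.00796). Ifi204, a DNA-binding member of the Ifi200 family, went from 18.3, 12.9, 14.1 and 14.6 CPM to 22.6, 20.2 and 25.3 CPM, again without overlap (log2 0.60 ± 0.15, edgeR, adjusted p = 0.0341). Ifi204 shares 20.02% of its 50-base stretches with other genes, mainly Ifi211 and Mndal, so its counts are uncertain. The RNA helicases Ifih1, Ddx58 and Dhx58, which sense viral RNA in the cytosol, had effects between 0.03 and 0.29 that did not pass the test.

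Of the oligoadenylate synthetase family, whose products switch on RNase L, 2 genes rose. Oasl2 stood at 163, 156, 140.3 and 139 CPM in PBS libraries and 231, 182 and 201 CPM in β-glucan libraries, with no overlap (log2 0.45 ± 0.10, edgeR, adjusted p = 0.0193). Oas1a stood at 40.6, 35.9, 39.03 and 28.8 CPM against 53.9, 51.7 and 54.1 CPM (log2 0.56 ± 0.12, edgeR, adjusted p = 0.0150). The 3 β-glucan values of Oas1a lay close together and above every PBS value. Oas1a shares 57.6% of its 50-base stretches with other genes, mainly its copies Oas1g and Oas1b, so the count may belong in part to them. Oas3 and Oasl1 lay on the other side of 0, at -0.11 and -0.15, without passing the test.

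Of the IFIT family, which binds viral RNA and halts its translation, Ifit3 rose and its neighbours on chromosome 19 did not pass the test. Ifit3 stood at 13.3, 10.8, 13.2 and 11.9 CPM in PBS libraries and 21.35, 16.5 and 19.0 CPM after β-glucan (log2 0.62 ± 0.14, edgeR, adjusted p = 0.0237), with no overlap. Ifit1 and Ifit2, whose effects were 0.02 and 0.03, had overlapping groups. Ifit3 shares 51.2% of its 50-base stretches with its copy Ifit3b.

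The remaining antiviral effectors held the gene that rose with the smallest p and the one that fell. Ifitm3 stood at 741, 678.5, 747 and 763 CPM in PBS libraries and at 1076, 1011 and 1016 CPM after β-glucan (log2 0.50 ± 0.07, edgeR, adjusted p = 0.00231). Rsad2 (viperin), which turns CTP into a nucleotide that stops viral polymerases, went the other way, from 306, 257, 287 and 303 CPM to 157, 129 and 143 CPM (log2 -1.01 ± 0.09, edgeR, adjusted p = 0.000162). Neither gene's groups overlapped. Isg15 also lay lower in all β-glucan libraries, with 118.5, 89.1, 114 and 86.9 CPM in PBS and 82.9, 61.7 and 77.8 CPM after β-glucan, and did not pass the test (log2 -0.46 ± 0.14, edgeR, adjusted p = 0.0680). It is named here after its values were seen.

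The other role groups held no called gene on day 7. Effects lay between -0.08 and 0.24 for Stat2, Irf9, Irf7 and Usp18, the factors and the protease of the pathway. They lay between -0.46 and 0.32 for Isg15, its ligase Herc6, and Trim30a, Parp9 and Dtx3l. All 8 remaining interferon-induced genes lay above 0, between 0.15 and 0.46.

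The day 7 calls rested in part on single libraries. With 1 library left out, 3 to 8 of the 39 genes were called, and Rsad2, Ifitm3 and Zbp1 passed in all 7 such fits. The count was 3 without β-glucan library 3. Ifi204 passed in 1 of the 7 fits, its adjusted p reaching 0.156. Marker lists of other cells moved in the same comparison: the neutrophil list took 5.498% to 6.25% of counts in PBS and 7.86% to 11.4% in β-glucan libraries with 9 of its 13 genes called higher, and the erythroid list 6.61% to 8.06% against 2.20% to 3.10%. Of 13 monocyte and macrophage genes 4 were called higher (0.140% to 0.153% of counts against 0.203% to 0.257%), and of 11 plasmacytoid dendritic cell genes, a list that includes Bst2, 7 were called lower (0.0658% to 0.0760% against 0.0483% to 0.0522%). Of 11 B cell genes 10 were called lower (0.221% to 0.246% of counts against 0.119% to 0.163%). No gene of these 5 lists was at 0 in any day 7 library, and their part in the interferon gene values was not tested.

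**Figure D3:**
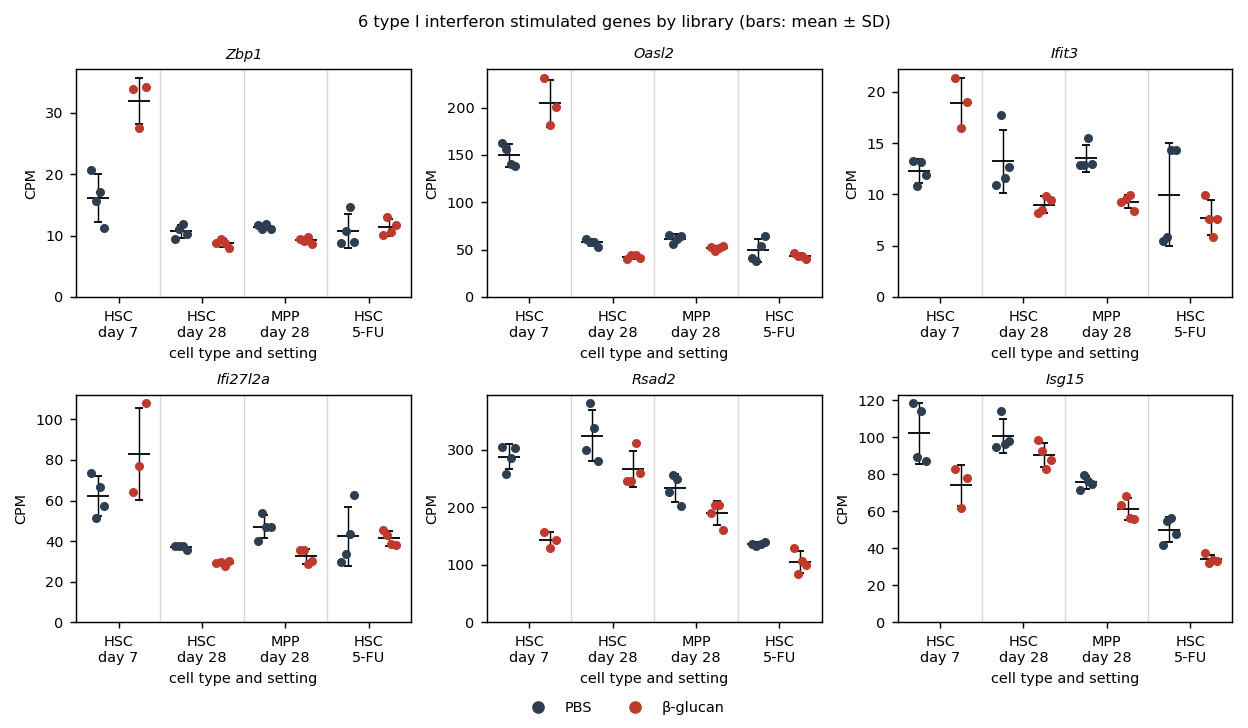
CPM (y axes, from 0) of 6 genes in each of the 31 libraries, PBS dark and β-glucan red, with mean and SD bars, by cell type and setting. Zbp1, Oasl2 and Ifit3 are higher with β-glucan on day 7, Oasl2 and Ifit3 lie lower with it on day 28 in both cell types, Rsad2 is lower with β-glucan on day 7, and the Isg15 groups of 5-FU mice do not overlap.

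On day 28 in HSC, 37 of the 39 genes lay below the PBS level and none was called by edgeR, against 0.0374% of all 16025 genes tested (all of those higher). The median effect of the 39 was -0.30, against -0.02 for all genes. At an unadjusted p under 0.05, 25 of the 39 were lower and none higher, against 8.83% lower among all genes. In 16 of the 39 every β-glucan library lay below every PBS library, against 4.05% of all genes. The call depended on the tool: the DESeq2 Wald test called 11 of the 39 lower and limma voom with quality weights 7, on tables in which they called 589 and 598 genes.

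The 4 genes of smallest p were Oasl2, Ifi203, Ifi27l2a and Ifi44. Oasl2 stood at 60.9, 58.1, 58.0 and 53.2 CPM in PBS libraries and 39.6, 44.8, 44.5 and 41.1 CPM after β-glucan (log2 -0.46 ± 0.08, edgeR, adjusted p = 0.0644). Ifi203, a DNA-binding member of the Ifi200 family, stood at 30.7, 26.2, 30.4 and 30.5 CPM against 20.8, 20.03, 22.5 and 21.9 CPM (log2 -0.49 ± 0.09, edgeR, adjusted p = 0.0920). Ifi27l2a stood at 37.5, 37.4, 37.7 and 35.75 CPM against 29.1, 29.85, 27.65 and 30.4 CPM (log2 -0.36 ± 0.07, edgeR, adjusted p = 0.0989). In each of these 3 genes the lowest PBS library was above the highest β-glucan library.

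Ifi44, an interferon-induced gene that is known to restrain virus growth, had the lowest effect of the 39, -0.91 ± 0.19 (edgeR, adjusted p = 0.101). Its PBS libraries held 10.55, 7.75, 6.40 and 9.28 CPM and its β-glucan libraries 4.99, 3.61, 5.68 and 4.15 CPM, with no overlap. The IFIT genes lay at -0.58 to -0.38, the 6 sensors at -0.49 to -0.14, and Stat2, Irf9, Irf7 and Usp18 at -0.31 to -0.06. Cmpk2, a mitochondrial nucleotide kinase, at 0.16 and Oas2 at 0.03 were the 2 genes above 0.

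The call also depended on which libraries were in the fit, and only 1 pair was left out together. With neither the second PBS library nor the third β-glucan library in the fit, a pair picked with earlier results of these data known, edgeR called 9 of the 39 lower among 669 genes in all, and Oasl2, Ifi203, Ifi27l2a and Ifi44 were among them, with adjusted p of 0.0172, 0.0102, 0.0395 and 0.0287. Without PBS library 2 alone, 2 were called, and none without any other single library. In PBS library 2, 30 of the 38 genes with a mean of at least 1 CPM lay above the mean of the PBS libraries, the highest such number of its group. The neutrophil list took 6.91% to 7.62% of counts in PBS and 6.08% to 6.88% in β-glucan libraries, with all 13 genes below 0 and none called, 15 of 16 long-term HSC markers and 11 of 11 B cell genes also lay below 0, and none was called. Their part in these values was not tested.

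**Figure D4:**
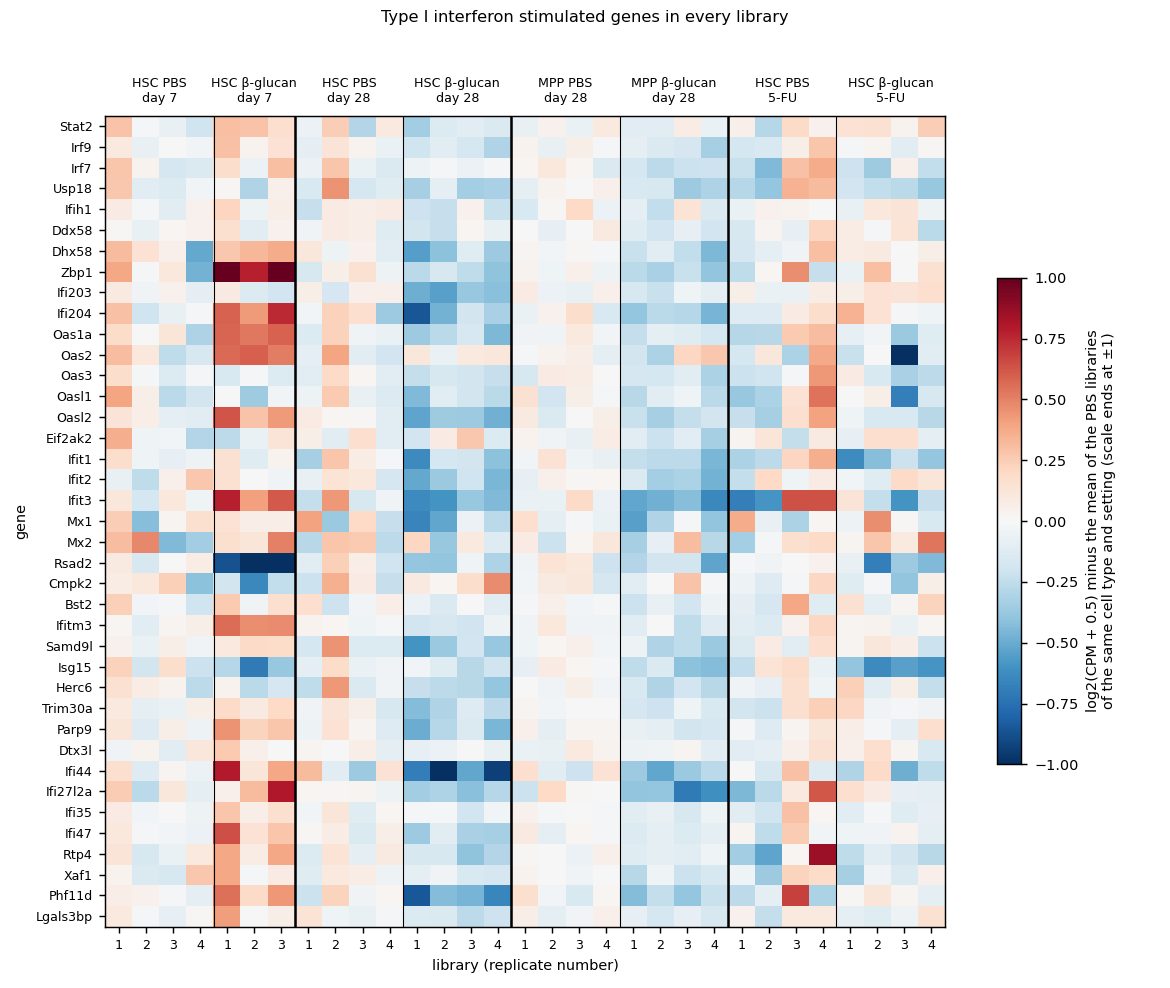
Log2(CPM + 0.5) of the 39 genes (rows) in every library (columns) minus the mean of the PBS libraries of the same cell type and setting, with blue below and red above that mean and colours ending at ±1. Most rows are blue in all 4 β-glucan libraries of HSC and of MPP on day 28, and Rsad2 and Isg15 are blue within the mostly red β-glucan block of day 7.

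In MPP on day 28, 12 of the 39 genes fell with β-glucan and none rose, against 1.91% of all 15828 genes tested called lower and 2.72% higher. The median effect of the 39 was -0.19, against 0.00 for all genes (-0.0014), and 37 lay below 0. In 23 of the 39 every β-glucan library lay below every PBS library, against 5.78% of all genes. The fall was small for each gene, between 0.22 and 0.54 on the log2 scale for the 12.

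All 3 IFIT genes fell. Ifit3 stood at 12.8, 12.85, 15.5 and 12.96 CPM in PBS libraries and 9.25, 9.54, 9.93 and 8.43 CPM after β-glucan (log2 -0.54 ± 0.09, edgeR, adjusted p = 0.00907). Ifit2 stood at 21.3, 23.3, 22.7 and 22.8 CPM against 20.3, 17.6, 17.95 and 16.04 CPM, with a log2 fold change of -0.32 ± 0.07. Ifit1 stood at 19.0, 21.4, 18.8 and 18.4 CPM against 16.3, 16.1, 16.1 and 14.0 CPM (-0.31 ± 0.08). None of the 3 genes had overlapping groups.

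Isg15 and its ligase in the mouse, Herc6, fell together with Usp18, the protease that takes Isg15 off proteins and dampens the receptor. Isg15 stood at 71.5, 79.8, 76.3 and 74.6 CPM in PBS libraries and 63.2, 68.35, 56.6 and 55.7 CPM after β-glucan (log2 -0.31 ± 0.07, edgeR, adjusted p = 0.0244). Herc6 stood at 33.2, 32.2, 34.35 and 32.3 CPM against 29.6, 26.7, 28.8 and 27.1 CPM (-0.24 ± 0.06). Usp18 had an effect of -0.25 and Irf7, the factor that amplifies interferon production, one of -0.22.

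Among the sensors Ifi204 and Zbp1 fell. Ifi204 stood at 23.6, 25.5, 28.1 and 22.3 CPM against 18.8, 20.5, 20.3 and 17.8 CPM (log2 -0.36 ± 0.08, edgeR, adjusted p = 0.0283), and Zbp1 had an effect of -0.32. Oasl2 stood at 65.8, 55.7, 61.3 and 64.0 CPM against 52.8, 48.96, 52.15 and 54.2 CPM (-0.25 ± 0.06), and was the one called gene of its family. Ifi27l2a stood at 40.3, 53.8, 47.2 and 47.1 CPM against 35.5, 35.8, 28.55 and 30.4 CPM (log2 -0.53 ± 0.09, edgeR, adjusted p = 0.0115), and Ifi44 had an effect of -0.41. In Ifi204, Oasl2 and Ifi27l2a the PBS libraries all lay above the β-glucan libraries.

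The number of called genes in MPP fell when libraries were left out. It came to 3 when PBS library 1, 2 or 3 was missing, 5 without PBS library 4, 2 without β-glucan library 3 or 4, and 10 and 9 without β-glucan libraries 1 and 2. Ifit3 and Ifi27l2a passed in all 8 of these fits. All the calls in them were in the lower direction. In the same comparison 7 of 13 neutrophil genes, 9 of 11 B cell genes and 5 of 11 T and NK cell genes were called lower, and 3 of 8 megakaryocyte genes higher. The neutrophil list took 6.12% to 7.30% of counts in PBS and 5.12% to 6.07% in β-glucan libraries, the B cell list 0.343% to 0.427% and 0.304% to 0.402%, and no gene of either was at 0 in any library of these groups. Their part in the interferon gene values was not tested.

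After 5-FU none of the 38 tested genes was called by edgeR (Mx2 was too low to test), against 0.0446% of 15705 genes tested. The median effect was -0.04, against 0.00 for all genes (-0.0031), with 25 genes below 0 and 13 above. At an unadjusted p under 0.05, 3 were lower and none higher, against 3.39% lower among all genes. The DESeq2 Wald test called 2 and limma voom 1. The share of all genes that these tools called after 5-FU is not given, so these counts cannot be set against all genes. Isg15 came closest in edgeR, with 41.85, 54.7, 56.5 and 47.5 CPM in PBS libraries and 37.7, 31.9, 33.9 and 32.95 CPM after β-glucan (log2 -0.57 ± 0.10, edgeR, adjusted p = 0.0781). Rsad2 stood at 136, 133, 137 and 140.2 CPM against 129.9, 84.6, 106 and 100.1 CPM (log2 -0.39 ± 0.10, edgeR, adjusted p = 0.266). These were the 2 genes whose groups did not overlap, where all genes give 1.83% in the lower direction, and both lay lower with β-glucan, as they had on day 7.

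The next 2 genes by p had groups that overlapped. Ifit1 stood at 12.9, 13.5, 18.95 and 21.0 CPM against 10.3, 11.97, 13.9 and 12.3 CPM (log2 -0.46 ± 0.16, edgeR, adjusted p = 0.483). Usp18 stood at 31.2, 29.15, 48.8 and 47.7 CPM against 33.5, 32.1, 31.5 and 29.2 CPM (log2 -0.32 ± 0.16, edgeR, adjusted p = 0.695). In both genes PBS libraries 3 and 4 lay above PBS libraries 1 and 2. The same split ran through most of the list: libraries 3 and 4 lay above the PBS mean in 28 and 30 of 38 genes, and libraries 1 and 2 in 6 and 8. The median SD of the log2 level over the PBS 5-FU libraries was 0.21 for the list and 0.18 for all genes, while in the other PBS groups the list had the smaller value (0.07 to 0.15 against 0.11 to 0.20). The erythroid list took 12.6% to 16.5% of counts in PBS and 9.44% to 12.5% in β-glucan libraries after 5-FU, with all 12 genes below 0. All 13 monocyte and macrophage genes (median 0.24) and 9 of 11 T and NK cell genes (median 0.42) lay above 0. None of the genes of these lists was called, and the part of the lists was not tested.

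The effect of β-glucan in HSC differed between day 7 and day 28. A fit over the 15 HSC libraries of both days called 18 of the 39 genes for this difference, 17 lower and 1 higher on day 28, against 2.58% lower and 2.24% higher of 17977 genes tested. The median difference was -0.46, against -0.02 for all genes. Oasl2 differed by -0.93 ± 0.12 (edgeR, adjusted p = 0.000590), with β-glucan above PBS on day 7 and below it on day 28. Zbp1 differed by -1.31 ± 0.22, Oas1a by -0.92 ± 0.16 and Ifitm3 by -0.70 ± 0.10, with adjusted p in edgeR of 0.00270, 0.00329 and 0.00101.

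All 6 genes that rose on day 7 were among the 17, which reuses the day 7 values that called them. Of the sensors 4 of 6 were called for the difference, and of the remaining interferon-induced genes 5 of 8. Ifi44, with effects of 0.46 on day 7 and -0.91 on day 28, had the lowest difference of the 39 at -1.39 ± 0.25. Rsad2 was the gene with the opposite call, 0.68 ± 0.15 (edgeR, adjusted p = 0.0149), since its fall on day 7 was larger than its value of -0.31 on day 28. With 1 library left out, 11 to 17 of the 39 were called, the lowest count coming without β-glucan library 3 of day 7, and all 11 belonged to the 18. The neutrophil list moved in the same direction (9 of 13 genes called lower for the difference) and the erythroid and B cell lists in the opposite one (10 of 12 and 8 of 11 called higher), and their part was not tested. Each day has a table of its own, and a difference that the tables made in the β-glucan libraries alone cannot be told apart from one of time.

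The effect of β-glucan on day 28 was not shown to differ between HSC and MPP. No gene of the list was called by edgeR, DESeq2 or limma voom, against 0.00599% of 16691 genes tested, and 3 of the 39 (Ifi203, Ifi44 and Oasl2) were higher at an unadjusted p under 0.05 (3.9% of all genes), all with the smaller fall in MPP. For Ifi203 the difference was 0.35 ± 0.10 (edgeR, adjusted p = 0.677), with effects of -0.49 in HSC and -0.13 in MPP. For Ifi44 it was 0.50 ± 0.22. For Ifit3, with effects of -0.58 and -0.54, an interval of 2 SE on either side of the difference ran from -0.33 to 0.39 on the log2 scale, so differences of that size remain possible.

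Ifi203 was the one gene called for a difference between 5-FU and day 28 in HSC, against 0.106% of 16985 genes tested. Its effect was 0.12 after 5-FU and -0.49 on day 28, a difference of 0.59 ± 0.11 (edgeR, adjusted p = 0.0496). The 5-FU libraries held 32.6, 29.85, 29.75 and 32.8 CPM with PBS and 32.5, 34.5, 34.25 and 35.2 CPM with β-glucan, which overlap. The call was lost in 14 of 16 fits with 1 library left out, where the adjusted p ran from 0.0165 to 0.139. Ifi203 shares 12.35% of its 50-base stretches with other genes, mainly Ifi203-ps and Mndal.

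HSC and MPP of PBS mice differed in 13 of the 39 genes at day 28, 9 higher and 4 lower in MPP, against 9.58% higher and 12.1% lower of 16122 genes tested. In β-glucan mice, which are other libraries, 21 differed, 17 higher and 4 lower, against 17.7% and 18% of 15945 genes. The shares called, 13 and 21 of 39, stood beside 21.7% and 35.6% of all genes. Both fits used group means and did not pair libraries by replicate number. The 4 genes lower in MPP were the same in both, namely Rsad2, Cmpk2, Isg15 and Oas3. The median over the list was 0.09 and 0.17, against -0.02 and -0.01 for all genes. Of the lists of mature cells, 7 of 11 B cell genes were called higher and 4 of 13 neutrophil genes and 7 of 12 erythroid genes lower in MPP of PBS mice, as were 7 of 8 tested megakaryocyte genes (median -2.54), and their part was not tested.

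**Figure D5:**
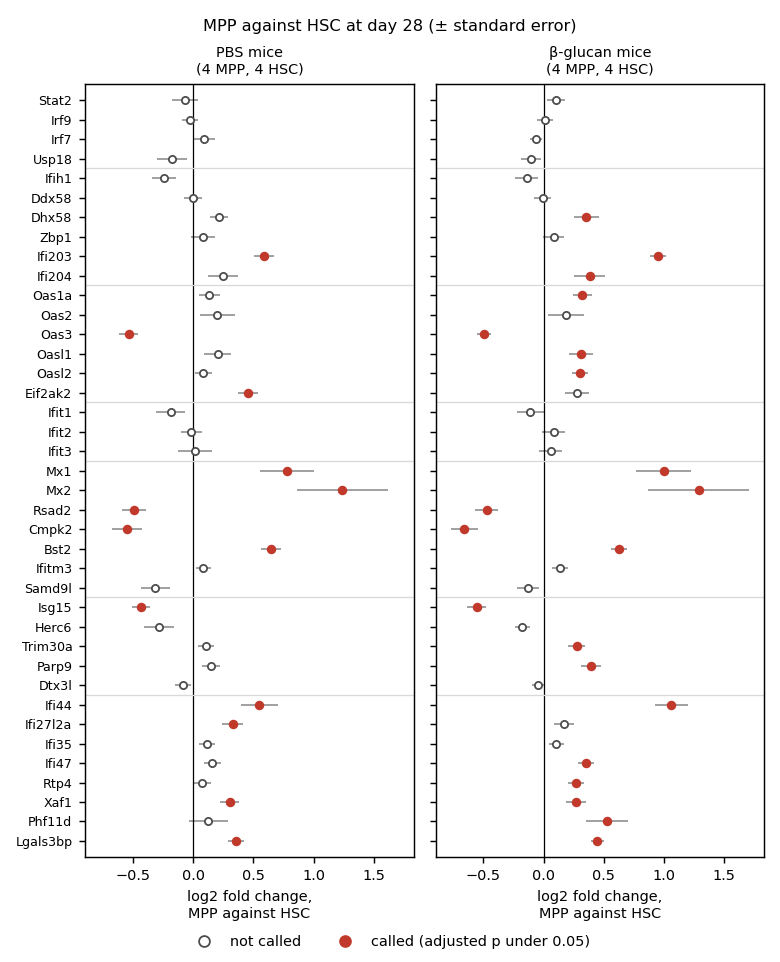
Log2 fold change of MPP against HSC at day 28 (x axis, bars ± SE) for the 39 genes (rows, grouped by role) in PBS mice and in β-glucan mice, filled red where called. Bst2, Ifi203, Mx1, Mx2 and Ifi44 lie right of 0 and Rsad2, Cmpk2, Isg15 and Oas3 left of 0 in both panels.

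Bst2 was higher in MPP. In PBS mice it stood at 57.3, 44.1, 50.2 and 53.6 CPM in HSC and 80.5, 84.3, 79.6 and 80.5 CPM in MPP (log2 0.65 ± 0.08, edgeR, adjusted p = 0.000421). In β-glucan mice it stood at 49.1, 46.2, 51.1 and 47.1 CPM in HSC and 69.8, 77.2, 70.9 and 78.2 CPM in MPP (0.63 ± 0.06). The cell types did not overlap in either treatment. Bst2 is also a surface marker of plasmacytoid dendritic cells. Of 11 genes of that list, 8, Bst2 included, were called higher in MPP of PBS mice and 1, Spib, lower (log2 -0.62). The list took 0.0414% to 0.0488% of counts in HSC and 0.0649% to 0.0655% in MPP. Its part was not tested.

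Ifi203 stood at 47.3, 42.8, 42.5 and 46.45 CPM in MPP of PBS mice, above the 26.2 to 30.7 CPM of HSC (log2 0.59 ± 0.08, edgeR, adjusted p = 0.000672), and the difference was 0.95 ± 0.07 in β-glucan mice. Lgals3bp, a secreted glycoprotein, stood at 130, 114.9, 113 and 117 CPM in HSC and 160, 144, 150.2 and 159 CPM in MPP (0.35 ± 0.07, edgeR, adjusted p = 0.00388). Eif2ak2, the kinase that stops translation when it binds double-stranded RNA, stood at 30.1, 26.7, 32.5 and 26.8 CPM in HSC and 41.1, 39.3, 38.1 and 42.35 CPM in MPP (0.45 ± 0.08, edgeR, adjusted p = 0.00359). In β-glucan mice the difference of Eif2ak2 was 0.27 ± 0.10 and did not pass the test. Mx1 and Mx2 were called higher in MPP in both treatments, at levels under 3 CPM.

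Rsad2 stood at 299.5, 381, 338 and 280.4 CPM in HSC of PBS mice and at 227, 256, 250 and 202 CPM in MPP (log2 -0.49 ± 0.10, edgeR, adjusted p = 0.00606), without overlap. Oas3 stood at 86.1, 105.5, 93.9 and 85.95 CPM in HSC and 57.97, 68.4, 67.97 and 64.9 CPM in MPP (-0.53 ± 0.08, edgeR, adjusted p = 0.00113). Isg15 stood at 94.7, 114, 96.1 and 98.2 CPM in HSC, above the 71.5 to 79.8 CPM of MPP (-0.43 ± 0.07, edgeR, adjusted p = 0.00186). Cmpk2 lies 12751 bases from Rsad2 on chromosome 12, on the opposite strand, and had effects of -0.55 and -0.66. All of the 4 genes were lower in MPP than in HSC in the β-glucan mice too.

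The interferons themselves were near 0 in all 31 libraries. Of 19 ligand genes listed, Ifnb1 had 1 count in 3 libraries and 0 in the others, and no type I interferon gene had more than 5 counts in a library. Ifng, the type II interferon, had 0 to 15 counts and was high enough to test in HSC on day 7, where its groups overlapped (log2 -0.30 ± 0.89), and in the difference between day 28 and day 7 (0.03 ± 1.13). At this depth a change of the ligands in the sorted cells was not detectable.

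Among the tested receptor, transducer and inhibitor genes, Irf1, Socs3 and Jak1 were called in HSC on day 7, where 6.72% of all genes were. Irf1, a factor induced by both types of interferon, rose by 0.60 ± 0.09 and Socs3, an inhibitor of Jak kinases, by 1.09 ± 0.22 from a low level (mean 3.73 CPM in PBS and 7.94 CPM in β-glucan libraries). Jak1 fell by 0.28 on the log2 scale. The receptor chains did not pass the test, with Ifnar1 at -0.03 ± 0.09 and Ifnar2 at 0.10 ± 0.16. Of 18 genes of nucleic acid sensing upstream of interferon, the adaptor Myd88 (0.59 ± 0.08) and the kinase Ikbke (0.53 ± 0.11) rose.

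On day 28 Ifnar2 lay at 0.73 ± 0.23 in HSC and 0.82 ± 0.24 in MPP, with adjusted p in edgeR of 0.169 and 0.0685. Its β-glucan libraries held 19.35, 19.0, 28.5 and 43.8 CPM in HSC and 15.9, 13.3, 27.7 and 34.3 CPM in MPP, where the PBS libraries held 14.2 to 17.4 and 12.2 to 13.2 CPM. Libraries 3 and 4 of both cell types were the high ones. In MPP, Irf2 fell by 0.26 and Irf8 rose by 0.36, and no receptor chain was called after 5-FU.

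Of 59 other tested interferon-stimulated genes, 12 were called higher and 4 lower on day 7 (2.83% and 3.88% of all genes), with a median of 0.23. The smallest p belonged to Isg20, an RNA exonuclease, at -0.94 ± 0.11, and Ube2l6, the enzyme that hands Isg15 to its ligases, at -0.86 ± 0.10. Ms4a4c, at 0.91 ± 0.12, and the immunoproteasome subunit Psmb9, at 0.45 ± 0.08, rose. On day 28, 49 of the 59 lay below 0 in HSC with none called by edgeR (24 lower and none higher at an unadjusted p under 0.05, against 8.83% lower of all genes). In MPP 9 were called lower and 1 higher (1.91% and 2.72% of all genes). The medians in HSC and MPP were -0.22 and -0.15. Ifitm1, a relative of Ifitm3, was the gene that rose in MPP (0.44 ± 0.08), and Ddx60, a helper of the RNA sensors, was among those that fell (-0.47 ± 0.09). For the difference between day 28 and day 7, 21 of 60 were called lower and 2 higher, against 2.58% and 2.24% of all genes.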

How the data were processed

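RNA was extracted with a column kit and made into libraries with the SMARTer Ultra HV v2 protocol, per the labels' protocols, which keeps no strand, so overlapping and antisense genes cannot be told apart. The authors deposited raw gene counts in 3 tables, with the gene length beside them, which was used to give levels per kilobase. The submitters' processing notes name bcl2fastq 1.8.4, featureCounts and the build mm10. Which aligner was used is not stated in these sources. No column belonged to a sample of another series (0 unmapped).

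Each comparison was fitted on all genes of the libraries it concerns with edgeR 4.0.16 (filterByExpr with a minimum count of 10, TMM scaling, quasi-likelihood test, Benjamini-Hochberg adjustment, threshold 0.05). Differences of effects are interaction contrasts in a fit over both pairs of groups. CPM use TMM totals within each table. The scripts were tested on simulated counts for some of the comparisons, with 2-fold changes of genes above a minimum level. Smaller changes, which most effects above are, and changes of genes at lower levels were not simulated. Alternatives were DESeq2 1.42.0 size factors and Wald test, limma 3.58.1 voom with quality weights, 2 other filters on low counts, totals without haemoglobin genes, the replicate number as a block, and leaving out each library. The chi-square per gene between replicates of a group was 6.26 to 45.5 over 45 pairs. Sharing of sequence with other genes was counted over 50-base stretches of GENCODE transcripts.

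The members and lists were chosen with earlier results of these data known. Genes are named with values by rule: the called genes of each β-glucan comparison (up to 8 by smallest p, filled to 4), the 6 genes of smallest p between MPP and HSC with called genes of opposite sign, up to 4 called genes per difference of effects (2 where none was called), the 4 highest and 4 lowest levels, and up to 4 called genes per pathway list, with Ifnb1, Ifng, Ifnar1 and Ifnar2 in any case. One gene of the pathway lists is not reported here.

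Same-numbered libraries of HSC and MPP of β-glucan mice at day 28 deviated together from their group means, with correlations across genes of 0.20, 0.22, 0.32 and 0.31. The SE and p-values given between MPP and HSC come from fits that did not pair libraries by number. No other pair of groups had every correlation above 0.1.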

Additional observations from a re-analysis of the deposited data

Results flagged for a closer look

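Of 161 sets of 4 libraries examined (23 genes in 7 groups), 14 had 1 library far from the other 3 by Dixon's test, where chance flags about 1 in 20 sets over both ends together. In HSC of PBS mice after 5-FU, library 3 stood apart for Bst2 at 41.8 CPM, Herc6 at 22.7 CPM and Phf11d at 4.34 CPM, each the highest value, and library 2 for Lgals3bp at 65.9 CPM, the lowest. In HSC of PBS mice on day 28, library 2 stood apart for Ifi203 at 26.2 CPM (lowest), and for Oas2 at 6.84 CPM and Usp18 at 80.7 CPM (highest). In HSC of β-glucan mice on day 28, library 2 stood apart for Oas2 at 4.83 CPM (lowest) and Usp18 at 55.4 CPM (highest). Library 1 of HSC of PBS mice on day 7 stood apart for Ifit1 at 59.3 CPM (highest). In MPP, library 4 of β-glucan mice stood apart for Ifit1 at 14 CPM (lowest), and of the PBS libraries number 3 for Ifit3 at 15.5 CPM and Oas1a at 32.2 CPM and number 2 for Ifitm3 at 489 CPM, all highest.

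The effect of β-glucan differed by a test of the difference itself for 19 results. Between day 28 and day 7 in HSC, the log2 difference was called in edgeR for Dhx58 (-0.70), Ifi203 (-0.44), Ifi204 (-1.11), Ifi27l2a (-0.80), Ifi44 (-1.39), Ifi47 (-0.70), Ifit3 (-1.23), Ifitm3 (-0.70) and Irf9 (-0.41). It was also called for Oas1a (-0.92), Oasl2 (-0.93), Parp9 (-0.71), Phf11d (-1.24), Rsad2 (0.68), Rtp4 (-0.59), Samd9l (-0.61), Trim30a (-0.49) and Zbp1 (-1.31). Between 5-FU and day 28 in HSC it was called for Ifi203 (0.59).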

How the results depend on the processing

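The number of the 39 genes called on day 7, 7 with the settings of the report, was 12 with the DESeq2 Wald test and 11 without a filter and 11 with the stricter one, and 3 to 8 with 1 library left out. For HSC on day 28, 0 became 11 with DESeq2, 7 with limma voom, 3 without a filter and 9 without PBS library 2 and β-glucan library 3, and 0 to 2 with 1 library left out. For MPP, 12 became 2 to 10 with 1 library left out. After 5-FU, 0 became 2 with DESeq2, 1 with limma voom, 1 without a filter and 1 with the stricter one, and 0 to 1 with 1 library left out. The difference between day 28 and day 7 gave 11 to 17, and the call of Ifi203 between 5-FU and day 28 was lost (0) with DESeq2 size factors, without a filter and with the replicate block, and gave 0 to 1 with 1 library left out. MPP against HSC gave 9 to 18 in PBS and 15 to 22 in β-glucan mice. The number of all genes called also depended on the setting, as given above for HSC on day 28. It is not set beside these counts, so they do not show how the list stood against all genes. The cause of these changes was not tested. For the 44 pairs of gene and comparison that the rule named from the list, no value changed direction in 709 recomputations. Of these recomputations 614 kept their side of the threshold. Other values given for genes, those of the pathway lists included, are not among the 44. The median effect after 5-FU ran from -0.12 to 0.00.

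With the replicate block the counts were 6, 0, 13 and 0 in the 4 β-glucan comparisons, 12 and 23 between MPP and HSC, and 15, 0 and 0 for the differences. The share of all genes called with the block is not given beside them. Outside the pair of groups named under processing, same-numbered libraries correlated at -0.12 to 0.25. In none of those pairs of groups did every library correlate best with its own number. Between PBS and β-glucan HSC of day 28, PBS libraries 1, 2 and 3 did, at 0.17, 0.25 and 0.23, and PBS library 4 did not, at -0.05. Whether same-numbered libraries shared more than a number cannot be decided from so few libraries. Depth limits Mx2, whose level was the lowest of the list, and the interferon genes, which were near 0 counts.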

Other observations

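4 genes of the list were called lower in MPP than in HSC and lay below 0 with β-glucan on day 7, in libraries that the comparisons do not share; they were chosen after their values were seen. The values are given side by side with no test. Rsad2 had log2 effects of -1.01 on day 7 and -0.49 between MPP and HSC of PBS mice. Isg15 had -0.46 and -0.43, Cmpk2 -0.37 and -0.55, and Oas3 -0.11 and -0.53. The other 5 of the 9 genes below 0 on day 7 were split. Herc6 had -0.14 and -0.28 and Usp18 -0.08 and -0.17, neither called in either comparison. Eif2ak2 had -0.08 and 0.45 and Ifi203 -0.08 and 0.59, both called higher in MPP, and Oasl1 had -0.15 and 0.21. Outside the list, Isg20 had -0.94 and -0.41 and Ube2l6 -0.86 and -0.57. Isg20 stood at 305, 278, 327 and 326 CPM in PBS libraries of day 7 and 191, 143 and 151 CPM after β-glucan, and at 215.9, 299, 213 and 232 CPM in HSC against 176, 197, 182 and 175 CPM in MPP of PBS mice at day 28. Socs3, also named after its values were seen, stood at 3.38, 4.57, 5.46 and 10.6 CPM in HSC and 2.17, 1.85, 4.38 and 5.68 CPM in MPP of β-glucan mice at day 28, with libraries 3 and 4 the highest in both cell types, the same libraries in which Ifnar2 was high.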
